A study of Mus musculus with 13 samples.

Results

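The Slc25 genes encode a family of membrane carriers, most of them in the inner mitochondrial membrane, with a few members elsewhere, such as the peroxisomal Slc25a17 and the outer membrane protein Slc25a46. Members were taken by name, as every gene whose symbol starts with Slc25a apart from 1 that is not reported, and 45 of the 19937 genes measured on the array by a probe set of their own were members. Slc25a5 was read by 3 probe sets, Slc25a36 and Slc25a40 by 2 each, and every other member by 1. The array is the Affymetrix Mouse Gene 1.0 ST, hybridized with RNA from both retinae of a mouse pooled (2 per array, 1 array per mouse). Levels are log2 intensities as the authors had normalized them between arrays, and differences are on the same log2 scale.

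A carrier passes its substrate across the inner membrane, usually in exchange for another, so the family links the matrix with the rest of the cell. The adenine nucleotide translocases let ATP out and ADP in, the aspartate-glutamate carriers bring the reducing power of cytosolic NADH into the matrix through the malate-aspartate shuttle, and the mitoferrins bring in the iron for heme and iron-sulfur clusters. Photoreceptors hold dense mitochondria in their inner segments and spend much ATP in darkness. PGC-1α is a coactivator of genes of mitochondria and oxidative metabolism.

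The groups were PGC-1α KO mice after light (KO light, 3 arrays), WT mice after light (WT light, 3 arrays), PGC-1α KO mice kept dark (KO dark, 3 arrays) and WT mice kept dark (WT dark, 4 arrays). Per the methods all mice were 6 to 13 weeks old and dark adapted for 16 h, and the light groups then had dilated pupils and 15000 lux for 2 h. The light-exposed mice then recovered overnight in darkness, and the time from light to RNA is not stated further for the arrays. The knockout is global. Per the methods the KO mice were a C57BL/6 line from another laboratory and the WT mice C57BL/6NRj from a breeder. Genotype and origin of the mice therefore cannot be told apart. The paper's figure legends name the WT mice C57BL/6j instead, so the WT substrain is not settled. The labels give male for all mice after light and female for those kept dark, apart from a male WT dark replicate 4, so light and sex cannot be told apart either. The methods name male mice, but the arrays followed the labels: Xist was at 11.86 to 12.02 and Uty at 4.14 to 4.42 in the 6 arrays labelled female, against 4.67 to 5.31 and 9.11 to 9.53 in the 7 labelled male. Ppargc1a itself was at 10.02, 10.25 and 9.96 in KO light against 9.96, 9.85 and 9.99 in WT light. In darkness it was at 10.40, 10.19 and 10.26 in KO dark against 10.03, 10.01 and 10.02 in WT dark, so the knocked-out gene read higher, without overlap, in KO dark. The position of its probe set with respect to the deleted exons is unknown here, so its level checks neither genotype nor labels.

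A pair of arrays stood apart from their labels. Over all genes, profiles of KO light replicates 1 and 2 correlated on average at 0.997 with the array labelled WT dark replicate 4 and at 0.992 with the array labelled KO light replicate 3. For WT dark replicates 1 to 3 these correlations were 0.989 and 0.997. Among the 45 members, WT dark replicate 4 lay closer to the mean of KO light replicates 1 and 2 for 31, and KO light replicate 3 lay closer to the mean of WT dark replicates 1 to 3 for 34. WT dark replicate 4 was left out of the main comparisons, which have 3 arrays per group. Each comparison is also given "with the exchanged arrays", where WT dark replicate 4 takes the place of KO light replicate 3 as the third KO light array. This exchange follows the resemblance seen in the same intensities. Spreads, p-values and calls with the exchanged arrays are therefore not independent of that choice, and the p-values may be too small. Median intensities were 141 to 146 over the 13 arrays. Rod, cone and Müller glia markers were at mean levels of 11.99 to 12.39, 10.52 to 11.23 and 10.96 to 11.21, so the defining genes of the labelled tissue were present.

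limma fitted 1 model to the 4 groups. A call needed an adjusted p under 0.05 (Benjamini-Hochberg, all genes) and a ratio no smaller than 1.2 or no larger than 0.87, while for the interaction the adjusted p sufficed. Over the 13 arrays most carriers were steady. The range of a member's level had a median of 0.35, beside 0.34 over all genes. Slc25a37, the mitoferrin best known from red cell precursors, had by far the widest range of the members, 1.70, followed by the orphan carrier Slc25a35 with 0.89 and the ornithine carrier Slc25a2 with 0.85. Slc25a46, an outer membrane protein of mitochondrial dynamics, had the narrowest, 0.15. In the map of all members by array, Slc25a37 is the 1 member with a block of high arrays, and the columns of KO light replicate 3 and WT dark replicate 4 differ from their neighbours in the same group.

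**Figure D1:**
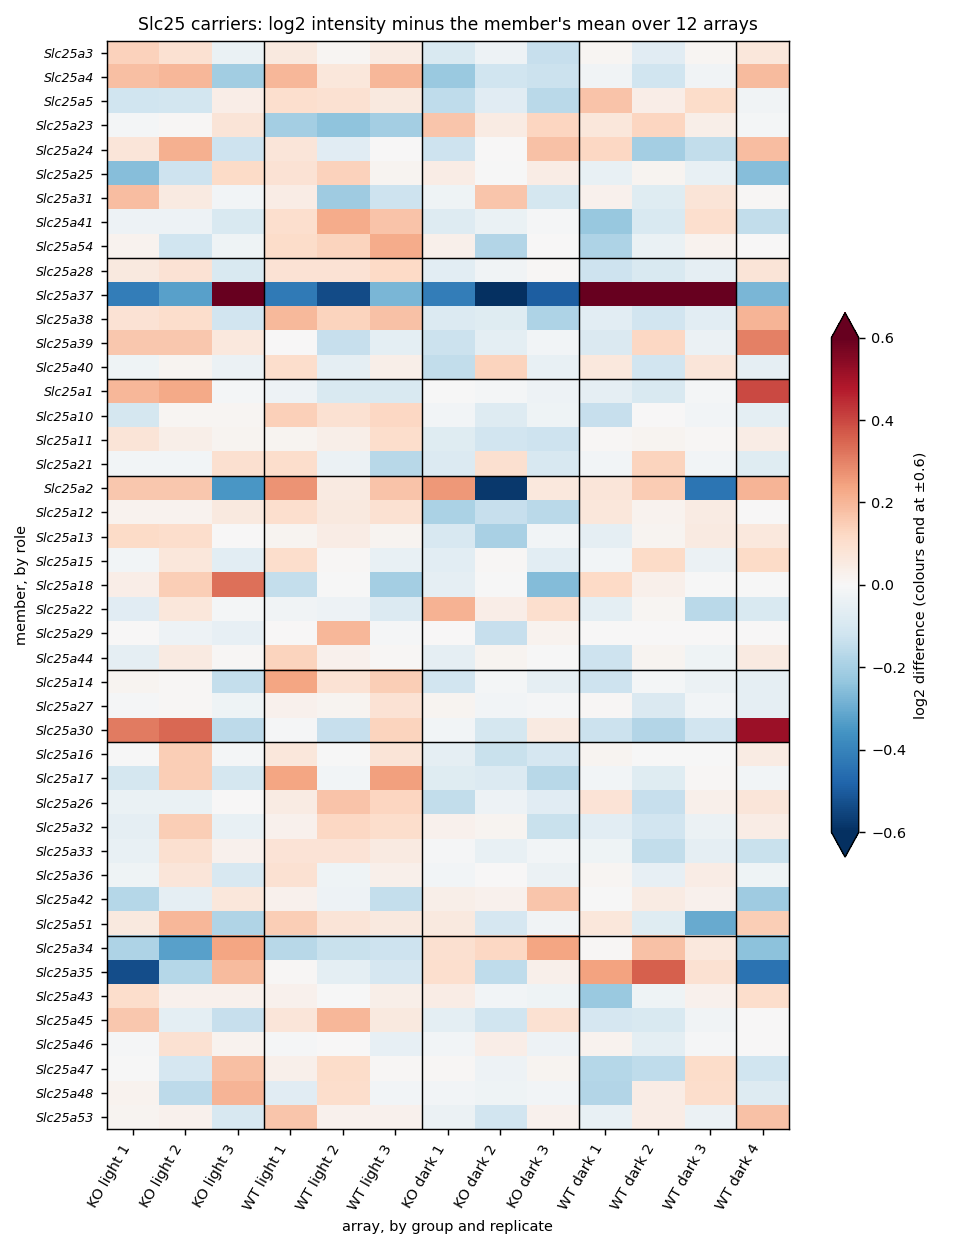
Each cell is a member's log2 intensity on an array minus its mean over the 12 arrays compared, with the 45 members down the page by role and the 13 arrays across by group. Colours end at ±0.6, and Slc25a37 is above that end in WT dark replicates 1 to 3 and KO light replicate 3.

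KO dark and WT dark were compared to ask how the retina of unstressed mice differs without PGC-1α. No member was called between KO dark and WT dark with the arrays as labelled (limma, 0 of 45, beside 0.0752% of all genes). At an unadjusted p under 0.05 with the same ratios 3 members passed, all of them lower in KO dark, beside 2.11% of all genes, and without moderated variances 1 was called, Slc25a12, beside 0.0201% of all genes. The members' median difference was -0.01, beside 0 over all genes, with 22 higher and 23 lower in KO dark. The exchanged arrays leave both dark groups as they are and change only the estimate of spread, and 3 members were then called lower, Slc25a37, Slc25a12 and Slc25a5, beside 0.878% of all genes. The same 3 were called when KO light replicate 3 was left out of the model, beside 0.853% of all genes.

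Slc25a37 imports iron into mitochondria. Its level was 7.88, 7.69 and 7.80 in KO dark against 9.00, 9.39 and 9.05 in WT dark replicates 1 to 3, while WT dark replicate 4 had 8.02. In the light it was 7.88, 7.97 and 9.23 in KO light and 7.87, 7.76 and 8.02 in WT light. So 4 arrays were high, WT dark replicates 1 to 3 and KO light replicate 3, and the other 9 lay between 7.69 and 8.02. KO dark averaged 7.79 ± 0.09 and WT dark 9.14 ± 0.21 (SD, n = 3 each), a difference of -1.36 (SE 0.27, 95% interval -1.93 to -0.78), a ratio of 0.391. The limma adjusted p was 0.0857 as labelled and 9.12e-06 with the exchanged arrays, and over all alternatives it ran from 9.12e-06 to 0.412. KO light averaged 7.96 ± 0.07 with the exchanged arrays (SD, n = 3), within the range of the other low arrays. The study lists Slc25a37 among the genes most lowered in KO dark and in WT light, each against WT dark.

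The gene has 1 probe set here, so its high and low levels could not be checked on another. Of the 3 nearest measured genes on each side of it on chromosome 14, Entpd4, a nucleotide hydrolase of the Golgi, had the same high arrays. Entpd4 was at 10.65, 10.77 and 10.60 in KO dark against 11.17, 11.12 and 11.21 in WT dark, and KO light replicate 3 was at 11.20. Its difference was -0.49 (SE 0.11, limma adjusted p = 0.131 as labelled and 0.000258 with the exchanged arrays), and RefSeq lists a like-named gene, Entpd4b, close by, whose signal may not be told apart from it. None of the other 5, Adam28, Stc1, Nkx2-6, Synb and R3hcc1, was called between KO dark and WT dark under either assignment. Stc1 was called in other comparisons with the exchanged arrays. Between WT light and WT dark it had -0.47 (limma adjusted p = 0.065 as labelled and 0.0128 with the exchanged arrays). Between KO light and WT light it had 0.38 and 0.34 (adjusted p = 0.173 and 0.037). Slc25a37 is abundant in red cell precursors, and the 2 red cell markers measured of 7 listed, Slc4a1 and Alas2, had a mean level of 6.63 to 6.65 in KO dark and 6.53 to 6.60 in WT dark, with none called. Over the 13 arrays Slc4a1 spanned only 6.64 to 6.93 and Alas2 6.37 to 6.65. The globins listed were not measured, so the part of red cells was not tested. Slc25a28, the relative of Slc25a37 and mitoferrin of most other tissues, was at 9.71, 9.75 and 9.78 in KO dark and 9.65, 9.68 and 9.72 in WT dark, a difference of 0.06 (95% interval -0.05 to 0.18).

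Slc25a12, known as aralar, is the calcium-stimulated aspartate-glutamate carrier of neurons and photoreceptors. It was at 10.93, 10.98 and 10.96 in KO dark against 11.19, 11.14 and 11.17 in WT dark, without overlap. The 3 KO dark arrays were the lowest of all 13, since the other arrays lay between 11.12 and 11.22. The difference was -0.21 (SE 0.04, 95% interval -0.30 to -0.12), a ratio of 0.864. Its limma adjusted p was 0.0857 as labelled and 0.0167 with the exchanged arrays, 0.0239 without moderated variances, and at most 0.339 over all alternatives. Slc25a13, citrin, the other carrier of this kind, had -0.11 (95% interval -0.23 to 0.01), and Slc25a11, the oxoglutarate-malate carrier of the same shuttle, also had -0.11 (95% interval -0.21 to -0.02). The 4 shuttle enzymes Mdh1, Mdh2, Got1 and Got2 each had a lower mean in KO dark, with differences of -0.13 to -0.09, and 0 were called under either assignment.

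Slc25a5, the adenine nucleotide translocase found in most tissues, was at 10.94, 11.02 and 10.93 in KO dark against 11.26, 11.13 and 11.20 in WT dark, without overlap. Each of its 3 probe sets was lower in KO dark, by -0.26, -0.20 and -0.23. Processed copies of the gene exist elsewhere in the genome, and whether the probes also bind their transcripts was not checked. The gene's difference was -0.23 (SE 0.06, 95% interval -0.35 to -0.11, limma adjusted p = 0.167 as labelled and 0.0364 with the exchanged arrays, up to 0.611 over all alternatives). In light it was at 10.97, 10.98 and 11.13 in KO light against 11.19, 11.18 and 11.15 in WT light, again without overlap, with a difference of -0.15 (limma adjusted p = 0.296). Its probe sets were less alike there, at -0.25, -0.04 and -0.15 in the same order, with the -0.04 on the brightest. That difference was -0.17 (adjusted p = 0.0363) at a ratio of 0.89 with the exchanged arrays, short of the ratio that makes a call. The difference between genotypes in light minus that in darkness was 0.08 (95% interval -0.09 to 0.26), so a change of the genotype difference with light was not shown. Slc25a4, the translocase of heart, muscle and neurons, was at 11.52, 11.62 and 11.61 in KO dark and 11.72, 11.62 and 11.72 in WT dark, which overlap, a difference of -0.10 (95% interval -0.30 to 0.10).

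**Figure D2:**
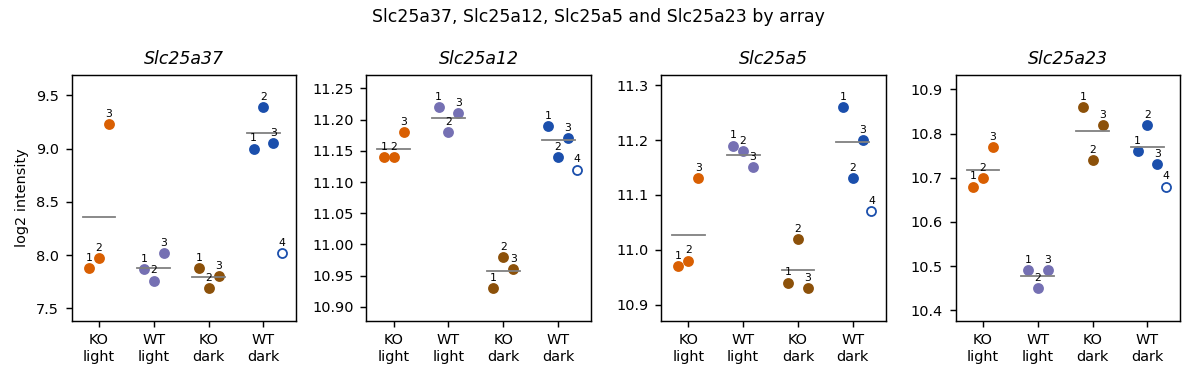
Log2 intensity of 4 carriers on each array, with replicate numbers beside the points, a bar at the mean of replicates 1 to 3 and WT dark replicate 4 as an open point. Slc25a37 was high in WT dark replicates 1 to 3 and KO light replicate 3, Slc25a12 was lowest in KO dark (10.93 to 10.98), Slc25a5 was lower in KO than in WT within light and within darkness, and Slc25a23 was lowest in WT light (10.45 to 10.49).

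The promoters of these translocases and of aralar are shown since Slc25a5 and Slc25a12 were the carriers besides Slc25a37 called between genotypes in darkness with the exchanged arrays, and Slc25a4 is the close relative of Slc25a5 that overlapped there. Each window runs from 250 bases before to 50 after the RefSeq gene start (GRCm38.p6), 5′ to 3′, and the capitals mark ATATAAG, a letter string of the TATA type that was chosen after the sequences had been seen.
Slc25a12 promoter, chr2:71367706-71368005, minus strand: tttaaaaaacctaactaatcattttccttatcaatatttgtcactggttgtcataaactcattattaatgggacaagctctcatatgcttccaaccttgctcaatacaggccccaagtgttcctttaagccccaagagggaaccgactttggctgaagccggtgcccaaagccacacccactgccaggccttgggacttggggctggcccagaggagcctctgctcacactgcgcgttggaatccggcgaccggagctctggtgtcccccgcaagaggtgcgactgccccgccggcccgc
Slc25a4 promoter, chr8:46211013-46211312, minus strand: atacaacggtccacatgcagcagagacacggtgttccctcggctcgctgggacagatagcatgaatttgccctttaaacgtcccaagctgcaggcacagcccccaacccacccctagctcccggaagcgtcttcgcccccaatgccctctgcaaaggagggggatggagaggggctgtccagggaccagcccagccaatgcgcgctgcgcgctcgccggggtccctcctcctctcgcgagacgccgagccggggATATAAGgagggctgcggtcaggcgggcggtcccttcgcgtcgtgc
Slc25a5 promoter, chrX:36795347-36795646, plus strand: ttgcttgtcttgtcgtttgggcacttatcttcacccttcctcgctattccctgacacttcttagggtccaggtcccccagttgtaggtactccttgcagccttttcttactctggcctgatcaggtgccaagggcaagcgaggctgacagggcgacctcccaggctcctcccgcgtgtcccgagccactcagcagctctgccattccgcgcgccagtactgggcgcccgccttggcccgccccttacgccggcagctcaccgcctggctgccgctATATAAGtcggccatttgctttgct
The string begins at base 255 of the Slc25a4 window and at base 276 of the Slc25a5 window, both after the annotated start, and is not in the Slc25a12 window. It occurs on either strand in 2.52% of all 32851 promoter windows and, among the 35 members with a window, in these translocases alone. Since it was picked from these windows, its presence in them was fixed by the choice. GC content was 54.3% for Slc25a12, 65.7% for Slc25a4 and 61.0% for Slc25a5, beside a median of 59.7% over the members' windows and 52.7% over all. TCAAGGTCA, the letters bound by estrogen-related receptors, partners of PGC-1α, and CGCATGCG, the core of the NRF1 site, were searched on both strands and found in no member's window. They occur in 0.423% and 1.87% of all windows, and a match or its absence describes these windows only.

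Slc25a22, which carries glutamate with protons, was the amino acid carrier with the highest mean difference in darkness. It was at 10.12, 9.95 and 10.01 in KO dark against 9.85, 9.92 and 9.75 in WT dark, without overlap, a difference of 0.19 (95% interval 0.06 to 0.32, limma adjusted p = 0.407 as labelled and 0.235 with the exchanged arrays). The other amino acid carriers had differences of -0.21 to 0.03. The cofactor and nucleotide carriers, which bring in coenzyme A, folate, NAD and pyrimidine nucleotides, had -0.10 to 0.08, and the relatives of the uncoupling proteins, Slc25a14, Slc25a27 and Slc25a30, had -0.01 to 0.12. In the plot of genotype differences, Slc25a37 is the 1 member beyond 1 log2 unit in darkness.

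**Figure D3:**
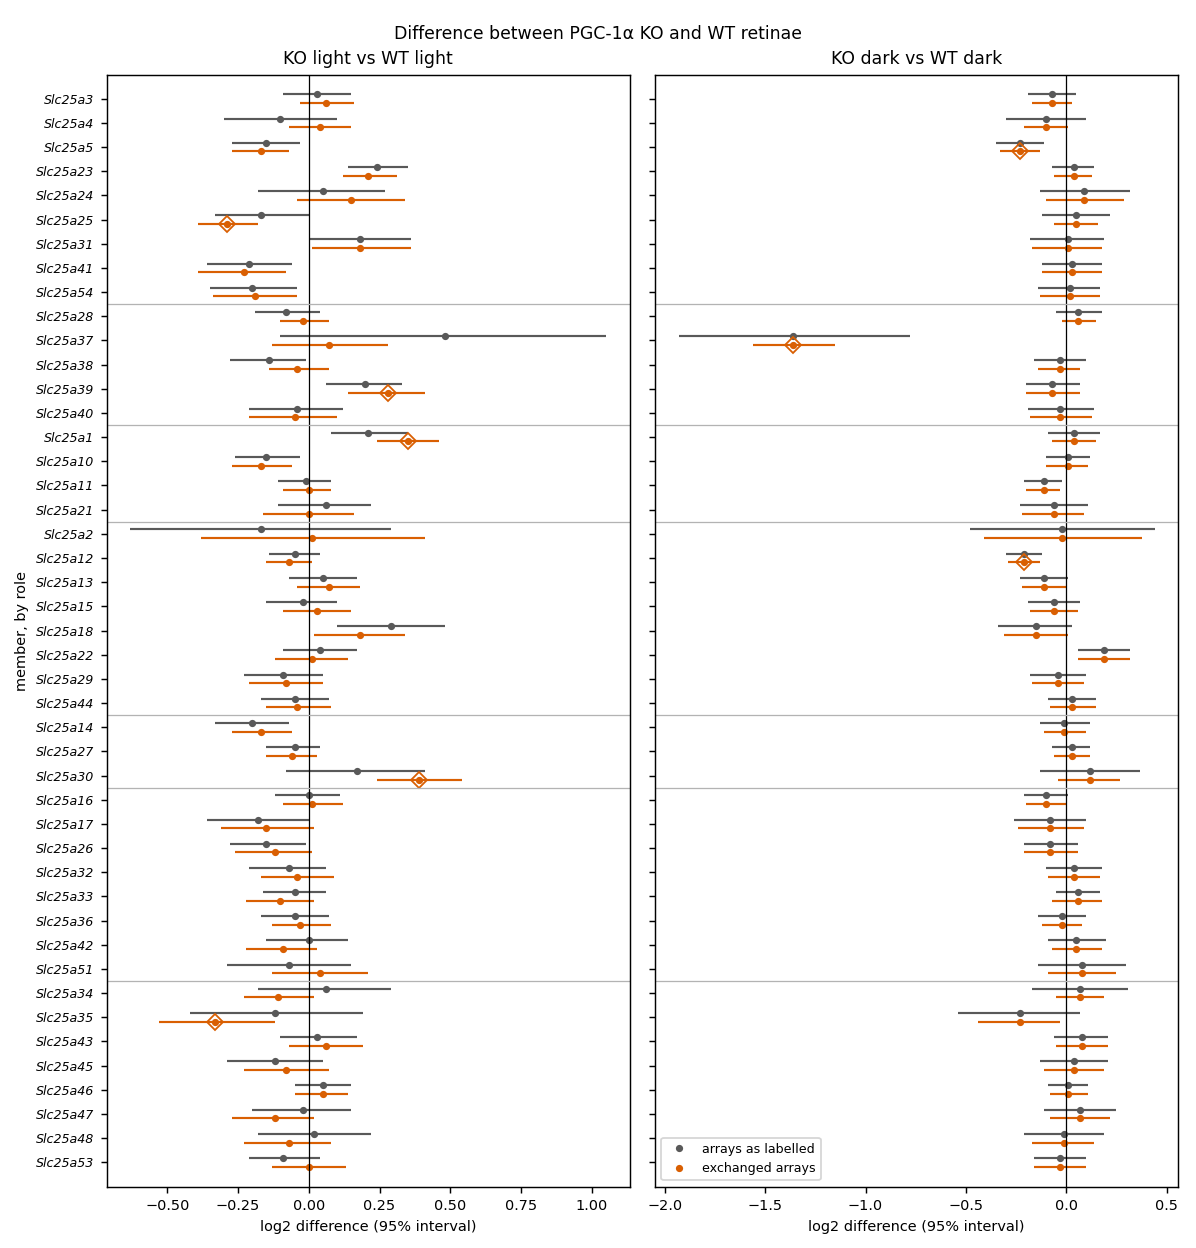
Log2 difference with its 95% interval for every member, KO light against WT light on the left and KO dark against WT dark on the right, by role down the page. Grey is with arrays as labelled, orange with the exchanged arrays, and open diamonds mark calls, which are all orange (5 on the left, 3 on the right). The horizontal scales of the panels differ.

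KO light and WT light were compared because light damage was the stress under study. No member was called between KO light and WT light as labelled (limma, 0 of 45, beside 0.176% of all genes). At an unadjusted p under 0.05 with the same ratios 2 passed, beside 4.47% of all genes, the glutamate carrier Slc25a18 and the ATP-Mg carrier Slc25a41, and 0 without moderated variances, beside 0.0251%. The members' median was -0.05, beside -0.01 over all genes, and 16 had a higher mean in KO light, beside 43.5% of all genes. Those values were -0.03, beside -0.02, and 20 members, beside 41.1% of all genes, with the exchanged arrays. A total of 5 were called with the exchanged arrays, beside 8.23% of all genes: Slc25a1, Slc25a30 and Slc25a39 rose, and Slc25a25 and Slc25a35 fell. Without KO light replicate 3 there were 3, Slc25a1, Slc25a30 and Slc25a25, beside 5.24% of all genes.

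Slc25a1 exports citrate, the source of cytosolic acetyl-CoA. Its level was 8.71, 8.74 and 8.50 in KO light against 8.48, 8.42 and 8.42 in WT light, and 8.91 in WT dark replicate 4. As labelled the groups did not overlap, with a difference of 0.21 (SE 0.06, limma adjusted p = 0.185). KO light with the exchanged arrays averaged 8.79 ± 0.11 against 8.44 ± 0.03 in WT light (SD, n = 3 each), a difference of 0.35 (SE 0.05, adjusted p = 0.00112, ratio 1.27). Slc25a30, a relative of the uncoupling proteins, was at 8.02, 8.05 and 7.55 in KO light against 7.70, 7.57 and 7.84 in WT light, which overlap, and at 8.22 in WT dark replicate 4. Its difference was 0.17 as labelled (limma adjusted p = 0.581) and 0.39 with the exchanged arrays (adjusted p = 0.0036). For both genes the 3 highest of all 13 arrays were KO light replicates 1 and 2 and WT dark replicate 4.

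Slc25a39, required for the import of glutathione, was at 9.53, 9.53 and 9.43 in KO light against 9.37, 9.23 and 9.31 in WT light, without overlap, and at 9.67 in WT dark replicate 4. The difference was 0.20 as labelled (limma adjusted p = 0.227) and 0.28 with the exchanged arrays (adjusted p = 0.0121). Its relative Slc25a40 had -0.04 (95% interval -0.21 to 0.12). Slc25a25, a calcium-dependent exchanger of ATP-Mg for phosphate, was at 8.97, 9.10 and 9.34 in KO light against 9.31, 9.36 and 9.24 in WT light, which overlap, and at 8.97 in WT dark replicate 4. It differed by -0.17 as labelled (limma adjusted p = 0.39) and by -0.29 with the exchanged arrays (adjusted p = 0.00242). Slc25a35, an orphan carrier, was at 9.38, 9.74 and 10.10 in KO light, spread over most of its range, against 9.92, 9.85 and 9.81 in WT light, with -0.12 as labelled (adjusted p = 0.771) and -0.33 with the exchanged arrays (adjusted p = 0.039). Over all alternatives the adjusted p of these carriers reached up to 0.578 for Slc25a1, 0.83 for Slc25a30, 0.556 for Slc25a39, 0.692 for Slc25a25 and 0.904 for Slc25a35.

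**Figure D4:**
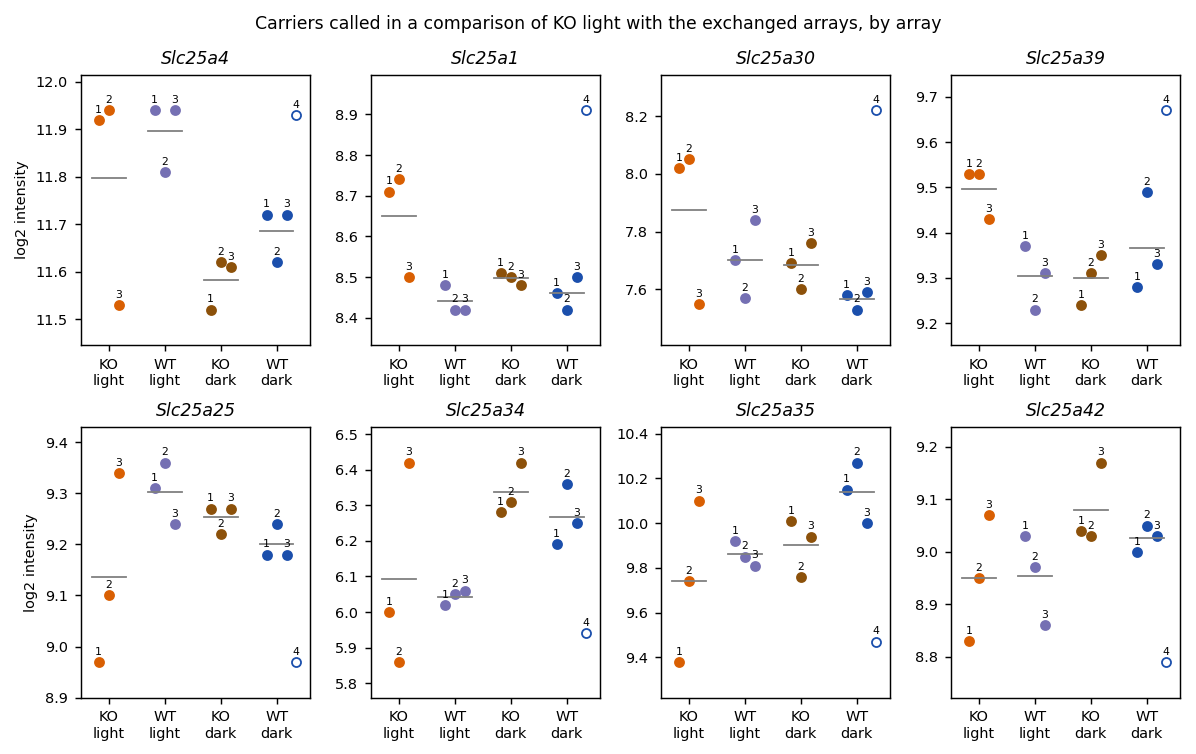
Log2 intensity of 8 carriers on each array, with replicate numbers beside the points, a bar at the mean of replicates 1 to 3 and WT dark replicate 4 as an open point. These 8 were chosen because they were called with WT dark replicate 4 placed in KO light, so its place in them follows from the choice: in each panel it lies outside the range of WT dark replicates 1 to 3, on the side of KO light replicates 1 and 2.

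Slc25a23, another calcium-dependent ATP-Mg carrier, had its lowest levels in WT light. It was at 10.68, 10.70 and 10.77 in KO light against 10.49, 10.45 and 10.49 in WT light, without overlap, a difference of 0.24 (SE 0.05, limma adjusted p = 0.0723 as labelled). It was 0.21 with the exchanged arrays (adjusted p = 0.00702), at a ratio of 1.16, which is short of a call. Slc25a18 had 0.29 as labelled (adjusted p = 0.203) and 0.18 with the exchanged arrays (adjusted p = 0.137). Of the 8 cofactor and nucleotide carriers none had a higher mean in KO light as labelled, with differences of -0.18 to 0, and 2 of 8 did with the exchanged arrays. Among all genes 43.5% had a higher mean in KO light as labelled.

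Markers of rods, cones and glial activation moved with the same arrays as Slc25a1, Slc25a30 and Slc25a25. The 6 markers of reactive glia had a mean level of 9.47 to 9.72 in KO light replicates 1 and 2, 8.04 in KO light replicate 3 and 9.91 in WT dark replicate 4, against 7.90 to 8.74 in WT light. The 5 cone markers were at 10.52 to 10.90, 11.12 and 10.54 in those arrays against 10.98 to 11.12 in WT light, and the 5 rod markers measured of 6 at 12.04 to 12.18, 12.26 and 11.99 against 12.30 to 12.39. All 6 reactive glia markers, 3 of 5 each of the rod, cone and Müller glia markers and 1 of 5 microglia markers were called between KO light and WT light with the exchanged arrays, and none of these as labelled. The shares of all genes called were 8.23% with the exchanged arrays and 0.176% as labelled. The Müller glia markers went both ways in this comparison. Glul and Rlbp1 averaged 11.78 and 10.34 in KO light, with the exchanged arrays, against 12.23 and 10.66 in WT light. Slc1a3, Aqp4 and Vim averaged higher, at 10.67, 10.19 and 12.59 against 10.44, 10.00 and 11.98. The cone marker Pde6c was at 9.97 against 9.93, while the other cone markers averaged lower. The markers' part in the carriers' differences was not tested. In RNA of a whole retina, fewer cells of a type and less RNA per cell cannot be told apart.

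KO light and KO dark gave the light response of KO mice, in which light and sex cannot be told apart. No member was called between KO light and KO dark as labelled (limma, 0 of 45, beside 0.1% of all genes), with 2 at an unadjusted p under 0.05 and the same ratios, beside 5.48% of all genes, and 0 without moderated variances, beside 0.0502%. The median was 0.04, beside 0 over all genes, and 36 of the 45 members had a higher mean in light, beside 48.4% of all genes. Those values were 0.07, beside -0.01, and 31 members, beside 45.4% of all genes, with the exchanged arrays. With the exchanged arrays 8 members were called, beside 13.3% of all genes. Slc25a4, Slc25a1, Slc25a30 and Slc25a39 rose, and Slc25a34, Slc25a35, Slc25a25 and Slc25a42 fell. Without KO light replicate 3 there were 4, Slc25a4, Slc25a30, Slc25a25 and Slc25a34, beside 9.94% of all genes. Marker genes were called here too: with the exchanged arrays 6 of 6 of reactive glia, 4 of 5 of cones, 3 of 5 of Müller glia, 2 of 5 of rods, 2 of 5 of microglia and 2 of 4 of endothelium passed in this comparison, and none as labelled. Of the Müller glia markers, Glul and Rlbp1 averaged lower than in KO dark, and Slc1a3, Aqp4 and Vim higher. The markers' part in the result was not tested.

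Slc25a4 was at 11.92, 11.94 and 11.53 in KO light against 11.52, 11.62 and 11.61 in KO dark, and at 11.93 in WT dark replicate 4. The array KO light replicate 3 was as low as the dark arrays. The difference was 0.21 as labelled (SE 0.09, limma adjusted p = 0.346) and 0.35 with the exchanged arrays (SE 0.05, adjusted p = 0.000424, ratio 1.27). In WT it was at 11.94, 11.81 and 11.94 in WT light against 11.72, 11.62 and 11.72 in WT dark, without overlap, a difference of 0.21 (limma adjusted p = 0.278 as labelled and 0.0261 with the exchanged arrays, at a ratio of 1.16). A difference between the genotypes' responses of Slc25a4 was not shown, at 0.00 (95% interval -0.29 to 0.29) as labelled and 0.14 (-0.02 to 0.29) with the exchanged arrays. Slc25a5 differed by 0.06 between KO light and KO dark and by -0.02 between WT light and WT dark.

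Slc25a34, an orphan relative of Slc25a35, was at 6.0, 5.86 and 6.42 in KO light against 6.28, 6.31 and 6.42 in KO dark, and at 5.94 in WT dark replicate 4. It differed by -0.24 as labelled (limma adjusted p = 0.356) and by -0.40 with the exchanged arrays (SE 0.06, adjusted p = 0.000318). In WT it was at 6.02, 6.05 and 6.06 in WT light against 6.19, 6.36 and 6.25 in WT dark, without overlap, a difference of -0.23 (limma adjusted p = 0.315 as labelled and 0.0288, a call, with the exchanged arrays, up to 0.714 over all alternatives). Slc25a34 was thus lower in the light groups of both genotypes with the exchanged arrays. Slc25a35 had -0.16 between KO light and KO dark as labelled and -0.37 with the exchanged arrays (adjusted p = 0.013). Slc25a42, a carrier of coenzyme A, was at 8.83, 8.95 and 9.07 in KO light against 9.04, 9.03 and 9.17 in KO dark, with -0.13 as labelled (adjusted p = 0.427) and -0.22 with the exchanged arrays (adjusted p = 0.0166).

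Between KO light and KO dark, Slc25a1 had 0.15 as labelled and 0.29 with the exchanged arrays (limma adjusted p = 0.294 and 0.00186). Slc25a30 had 0.19 and 0.41 (adjusted p = 0.501 and 0.00141), Slc25a39 had 0.20 and 0.28 (adjusted p = 0.204 and 0.00643), and Slc25a25 had -0.12 and -0.24 (adjusted p = 0.542 and 0.00413). The 8 carriers called here had adjusted p of up to 0.591 (Slc25a39) to 0.98 (Slc25a35) over all alternatives. These are the same KO light arrays that were set against WT light, so the comparisons are not independent. Slc25a12, low in KO dark, was at 11.14, 11.14 and 11.18 in KO light, above all 3 KO dark arrays, a difference of 0.20 (SE 0.04, limma adjusted p = 0.0919). The value with the exchanged arrays was 0.18 (adjusted p = 0.00498), at a ratio of 1.13, short of a call. Between WT light and WT dark Slc25a12 differed by 0.04 (95% interval -0.05 to 0.13), and the difference between these responses, 0.16 (95% interval 0.03 to 0.29), had an adjusted p of 0.605.

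**Figure D5:**
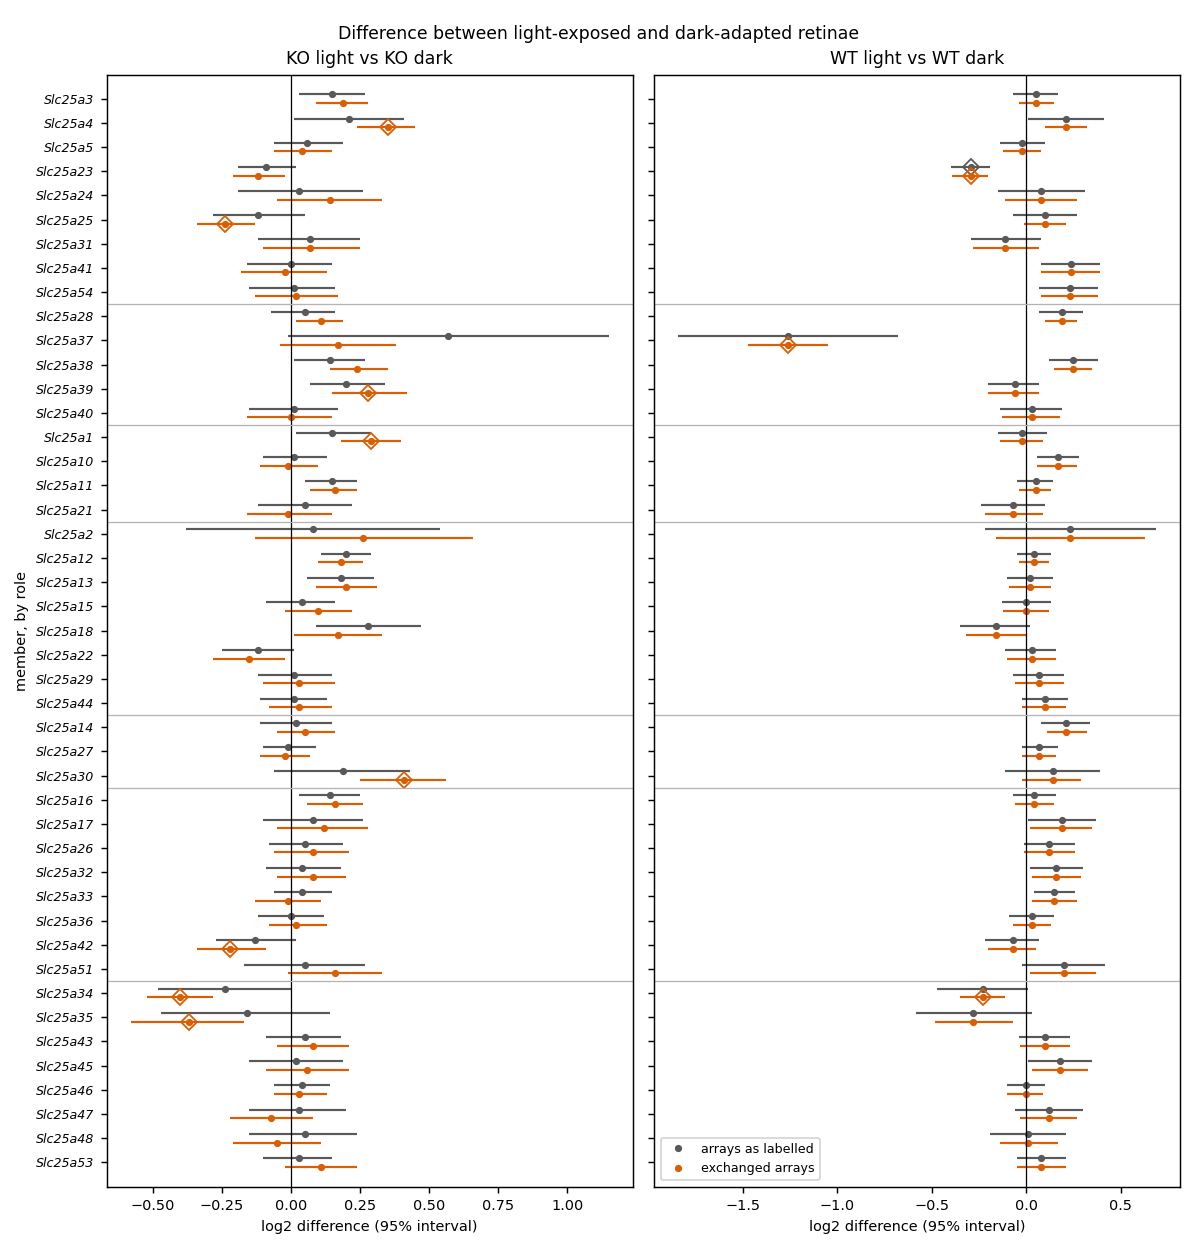
Log2 difference with its 95% interval for every member, KO light against KO dark on the left and WT light against WT dark on the right, by role down the page. Grey is with arrays as labelled, orange with the exchanged arrays, and open diamonds mark calls. Slc25a23 in WT is the only grey call, and the horizontal scales of the panels differ.

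WT light and WT dark gave the light response of WT mice, in which light and sex cannot be told apart. As labelled 1 member was called between WT light and WT dark, Slc25a23, beside 0.431% of all genes. At an unadjusted p under 0.05 with the same ratios 2 passed, beside 5.76% of all genes, and 1 without moderated variances, beside 0.0903%. The exchanged arrays leave both WT groups as they are, and 3 were then called lower, Slc25a23, Slc25a37 and Slc25a34, beside 4.41% of all genes. The median was 0.07, beside 0.02 over all genes, and 33 of 45 members had a higher mean in light, beside 56.1% of all genes. By role, a higher mean was found in 7 of 8 cofactor and nucleotide carriers (median 0.14), all 3 relatives of the uncoupling proteins (0.14), 6 of 9 adenine nucleotide and phosphate carriers (0.08), 7 of 8 amino acid carriers (0.03), 3 of 5 iron, glycine and glutathione carriers (0.03), 2 of 4 di- and tricarboxylate carriers (0.01) and 5 of 8 others (0.05). Of the markers, 1 of 5 of pigment epithelium was called here as labelled. Their mean level was 6.82 to 7.96 in WT light, 7.57 to 8.08 in WT dark and 7.12 to 8.43 in KO dark, so it varied within groups. With the exchanged arrays 2 of 6 reactive glia markers and 1 each of Müller glia, pigment epithelium and endothelium were called. The markers' part in this comparison was not tested.

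Slc25a23 was at 10.49, 10.45 and 10.49 in WT light against 10.76, 10.82 and 10.73 in WT dark, while WT dark replicate 4 had 10.68. The 3 WT light arrays were the lowest of all 13. It fell by 0.29 on the log2 scale (SE 0.05, 95% interval -0.40 to -0.19, limma adjusted p = 0.0341, ratio 0.817). The call did not hold on leaving out any 1 of the 6 arrays compared, with adjusted p = 0.0926 to 0.122, nor with all 13 arrays (0.0536), and the difference itself stayed between -0.32 and -0.27 over all alternatives. Between KO light and KO dark the gene differed by -0.09 (95% interval -0.19 to 0.02). The difference of the responses, 0.20 (95% interval 0.05 to 0.35), had an adjusted p of 0.557.

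Slc25a37 was at 7.87, 7.76 and 8.02 in WT light against 9.00, 9.39 and 9.05 in WT dark, a difference of -1.26 (SE 0.27, limma adjusted p = 0.0606 as labelled and 1.26e-05 with the exchanged arrays, up to 0.279 over all alternatives). Its difference between KO light and KO dark was 0.57 as labelled (95% interval -0.01 to 1.15), which rests on KO light replicate 3 at 9.23, and 0.17 with the exchanged arrays (-0.04 to 0.38). Slc25a38, a glycine carrier for the first step of heme synthesis, was at 9.57, 9.51 and 9.55 in WT light against 9.31, 9.26 and 9.31 in WT dark, without overlap. Its difference was 0.25 (SE 0.06, adjusted p = 0.0807 as labelled and 0.00946 with the exchanged arrays) at a ratio of 1.19, just short of a call. Slc25a28 had 0.19 (95% interval 0.07 to 0.30), so of these carriers of iron and glycine Slc25a37 alone had a lower mean in WT light.

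The interaction compares the light response of KO mice with that of WT mice, each taken between females in darkness and males in light. No member passed as labelled (limma, 0 of 45, beside 0.0602% of all genes), with 7 at an unadjusted p under 0.05, beside 6.86% of all genes, and 0 without moderated variances, beside 0.00502%. There were 3 with the exchanged arrays, beside 2.78% of all genes. Slc25a37 had 1.83 as labelled (SE 0.38, adjusted p = 0.196) and 1.43 with the exchanged arrays (SE 0.14, adjusted p = 0.000335), where its level was high in WT dark alone. Slc25a1 had 0.18 and 0.31 (adjusted p = 0.753 and 0.0435), and Slc25a25 had -0.21 and -0.34 (adjusted p = 0.753 and 0.0234). For Slc25a1 and Slc25a25 the KO response with the exchanged arrays was 0.29 and -0.24, and WT light and WT dark differed by -0.02 and 0.10. The adjusted p reached up to 0.547 for Slc25a37, 0.888 for Slc25a1 and 0.906 for Slc25a25 over all alternatives.

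In all, 12 members were called in a contrast under either assignment and 33 in none. The matching share over all genes was not counted, and KO light against KO dark with the exchanged arrays alone called 13.3% of them. As labelled, these 33 had differences of -0.15 (Slc25a18) to 0.19 (Slc25a22) between KO dark and WT dark, -0.21 (Slc25a41) to 0.29 (Slc25a18) between KO light and WT light, -0.12 (Slc25a22) to 0.28 (Slc25a18) between KO light and KO dark, and -0.16 (Slc25a18) to 0.25 (Slc25a38) between WT light and WT dark. Slc25a18 thus stood at an end of the range in each of these contrasts. It was at 7.29, 7.40 and 7.58 in KO light against 7.11, 7.25 and 7.05 in WT light, and at 7.20, 7.25 and 6.99 in KO dark against 7.37, 7.28 and 7.25 in WT dark. As labelled the light groups did not overlap and the dark groups met at 7.25. WT dark replicate 4 was at 7.25, so with the exchanged arrays the light groups met at that level too. The interaction of Slc25a18, 0.45 (SE 0.12, limma adjusted p = 0.38 as labelled and 0.116 with the exchanged arrays), did not pass. The phosphate carrier Slc25a3, which supplies phosphate for ATP synthesis, was at 11.71, 11.77 and 11.66 in KO dark and 11.81, 11.73 and 11.81 in WT dark, a difference of -0.07 (95% interval -0.19 to 0.05). Slc25a14, a relative of the uncoupling proteins found in brain, had -0.20 (95% interval -0.33 to -0.07) between KO light and WT light and 0.21 (0.08 to 0.34) between WT light and WT dark (limma adjusted p = 0.206 and 0.109). With the exchanged arrays the adjusted p was 0.0469 and 0.0227, at ratios of 0.892 and 1.16, short of a call.

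Related genes gave no calls with the arrays as labelled. The related genes were 10 carriers and carrier-like proteins under other symbols, 6 genes of mitochondrial calcium transport, 3 outer membrane porins, 20 genes of iron, heme and iron-sulfur clusters and the 4 shuttle enzymes. Of the 20 iron and heme genes, 6 rose between KO light and KO dark with the exchanged arrays, beside the 13.3% of all genes called in either direction. Iscu, a scaffold for iron-sulfur clusters, had 0.30 as labelled and 0.38 with the exchanged arrays (limma adjusted p = 0.0766 and 9.17e-05), and Alad, an enzyme of heme synthesis, had 0.24 and 0.41 (adjusted p = 0.254 and 0.000152). Hmox1, which breaks down heme, had 0.45 and 0.88 (adjusted p = 0.249 and 0.00647). For Ftl1, the light chain of ferritin, whose near-identical copies could share its signal, the values were 0.53 and 0.58 (adjusted p = 0.138 and 0.00343). The iron importer Slc11a2 had 0.17 and 0.31 (adjusted p = 0.423 and 0.00267), and Tfrc, the transferrin receptor, had 0.12 and 0.29 (adjusted p = 0.659 and 0.00328).

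Of the 20 iron and heme genes, 2 were called between KO light and WT light with the exchanged arrays, beside 8.23% of all genes. Between WT light and WT dark 1 was called, beside 4.41%, and in the interaction 1, beside 2.78%. Between KO light and WT light, Alad had 0.19 as labelled and 0.37 with the exchanged arrays (limma adjusted p = 0.374 and 0.000779), and Hmox1 had 0.28 and 0.72 (adjusted p = 0.48 and 0.0309). Tfrc had 0.35 between WT light and WT dark under both assignments (adjusted p = 0.131 as labelled and 0.00411 with the exchanged arrays), and the interaction of Iscu was 0.20 and 0.28 (adjusted p = 0.683 and 0.035). Between KO dark and WT dark 0 of the 20 were called under either assignment, with a median of 0.01, and the furthest from 0 was Iscu at -0.18, beside -1.36 for Slc25a37. Mdh1, the cytosolic malate dehydrogenase, was the 1 of 4 shuttle enzymes called between KO light and WT light with the exchanged arrays. It had -0.23 as labelled and -0.24 with the exchanged arrays (adjusted p = 0.132 and 0.0138).

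In the other lists, few genes were called with the exchanged arrays. Between KO light and KO dark these were 2 of 10 carriers, 1 of 6 calcium genes and 1 of 3 porins, beside 13.3% of all genes. Between KO light and WT light they were 1, 1 and 0, beside 8.23%, and between WT light and WT dark 1, 0 and 0, beside 4.41%. No list was tested as a whole. The carrier-like Mtch1 had 0.21 as labelled and 0.33 with the exchanged arrays between KO light and KO dark (limma adjusted p = 0.225 and 0.000139). Between WT light and WT dark it had 0.28 (adjusted p = 0.0877 and 0.00263). The porin Vdac3 had 0.13 and 0.27 between KO light and KO dark (adjusted p = 0.49 and 0.00318). Slc8b1, the mitochondrial sodium-calcium exchanger, had 0.14 and 0.29 between KO light and WT light (adjusted p = 0.54 and 0.0127) and 0.18 and 0.33 between KO light and KO dark (adjusted p = 0.381 and 0.00338). The sideroflexin Sfxn4 had -0.26 and -0.36 in both of these comparisons (adjusted p = 0.265 and 0.0062 against WT light, 0.244 and 0.00356 against KO dark).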

How the data were processed

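RNA of mouse retinae on 13 arrays was analysed. Per probe set, the files hold linear intensities as deposited, already normalized between arrays by the authors. The methods name Partek and Bioconductor, and the submitters' processing notes name Partek, without versions. For summarization, normalization method, filters and genome build, nothing is given in the sources used here. The labels name Trizol for RNA extraction and the methods another kit.

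Intensities were taken to log2. Of 34760 probe sets 21640 carry 1 symbol, 1321 several and 11799 none. Probe sets with 1 symbol were averaged per gene (19937 genes), and 21553 of these probe sets matched RefSeq (GRCm38.p6), used for names, chromosomes and neighbours. 1 gene is not reported here. limma 3.58.1 in R 4.3.3 fitted 4 groups to 12 arrays without covariates (8 residual degrees of freedom before moderation), with Benjamini-Hochberg adjustment over all genes in each of 5 contrasts. Thresholds follow the methods, and "without moderated variances" is the fit nearest in kind to the ANOVA they name. It called far fewer genes than the study reports, so it does not reproduce that ANOVA. The number of arrays limits the precision.

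Tests are given for members called under either assignment of the arrays, the member with the largest difference in a contrast, and Slc25a4, Slc25a5, Slc25a12 and Slc25a22. The others are given by range and counts, and genes of other lists were named when called. Slc25a2, Slc25a3, Slc25a11, Slc25a13, Slc25a14, Slc25a18, Slc25a28, Slc25a38, Slc25a40, Slc25a41 and Slc25a46 were added after their values were seen. Members, lists and tests were chosen with earlier results of these data known. The script was tested on simulated data. Alternatives were all 13 arrays, the exchanged arrays, only the 2 groups compared, no moderation, quantile normalization, the brightest probe set, a filter on genes below the 25th percentile, no ratio threshold, a replicate block and leaving out each array. Leaving KO light replicate 3 out of contrasts that do not use it was added after seeing the data.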

Additional observations from a re-analysis of the deposited data

Results flagged for a closer look

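In WT dark, the array labelled replicate 4 lay far above the other 3 for 3 of the 44 members whose values vary there. The gap to the nearest array was 0.83 of the group's whole range for Slc25a1, 0.917 for Slc25a30 and 0.846 for Slc25a38, and chance alone gives such a gap in about 1 of 20 groups. The count of 3 of 44 is near that rate, and the share over all genes was not counted. Slc25a1 was at 8.91 there against 8.42 to 8.50 in the others, Slc25a30 at 8.22 against 7.53 to 7.59, and Slc25a38 at 9.58 against 9.26 to 9.31.

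The interaction, that is the KO response to light minus the WT response, was, with the exchanged arrays, 0.31 for Slc25a1, -0.34 for Slc25a25 and 1.43 for Slc25a37 (limma adjusted p = 0.0435, 0.0234 and 0.000335). As labelled, none of these passed.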

How the results depend on the processing

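Over the 41 gene results, 595 of 655 alternatives kept direction and side of the threshold, 38 passed it newly, 8 no longer passed and 14 changed sign. The assignment of 2 arrays mattered most. With the exchanged arrays, members called numbered 3 for KO dark against WT dark, 5 for KO light against WT light, 8 for KO light against KO dark, 3 for WT light against WT dark and 3 for the interaction, and over all genes 175, 1640, 2653, 880 and 555, against 15, 35, 20, 86 and 12 as labelled. Leaving out 1 array at a time gave 0 to 3, 0 to 3, 0 to 4, 0 to 3 and 0 to 1 members in the same order, each highest count without KO light replicate 3, beside 0.853%, 5.24%, 9.94%, 4.30% and 1.32% of all genes. Fitting the 2 groups alone gave 1 in darkness (Slc25a37, beside 0.722% of all genes) and 2 in WT (Slc25a23 and Slc25a37, beside 3.41%). Without moderated variances 1 was called in darkness (Slc25a12, beside 0.0201%). The filter on dim genes gave 2 in WT (beside 1.17% of the genes kept), and all 13 arrays gave 0 in WT (beside 0.11%).

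With a replicate block 0 members were called in WT (Slc25a23, adjusted p = 0.0714), beside 0.0853% of all genes. The replicate numbers do not pair the arrays: 2 of 18 same-numbered pairs had deviations correlated above 0.1 (-0.19 to 0.22), and 3 of 12 arrays correlated best with their own number. The block changed no other call of a member.

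Signs changed for small differences. Slc25a5 between WT light and WT dark was 0.01 with all 13 arrays and -0.06 to 0.01 on leaving out 1 array, above 0 without WT dark replicate 1. Slc25a22 there was -0.01 after quantile normalization and -0.02 to 0.06 on leaving out 1 array, below 0 without WT dark replicate 3. Slc25a4 between KO light and WT light was 0.04 with the exchanged arrays, and -0.17 to 0.04 on leaving out 1 array at a time, and its interaction then ran over -0.07 to 0.14 (below 0 without KO dark replicate 1, KO light replicate 1 or 2, WT light replicate 2, or WT dark replicate 1 or 3). Slc25a35 ran over -0.30 to 0.06 against WT light and over -0.34 to 0.01 against KO dark, above 0 without KO light replicate 1. The cause of these shifts was not tested. Deposited intensities can recur: Slc25a29 had 161.7 on 7 of 13 arrays.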
